A study of Mus musculus with 24 samples.

Results

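The lncRNAs described here are 3 transcripts that carry the gene symbols Gap43, Snap25 and Mobp. They are lncRNA probes with these symbols in the study's supplementary lists of transcripts detected in brain, specific to brain or detected in F9. The lists for detection in brain and in F9 were read only in part, so other probes of these genes may have been missed. The lncRNAs described make up 3 of the 60804 transcripts with a probe on each array. Of all these probes, only 3478 were identified here. The members were selected on measured values, namely detection in brain or F9 and, for brain-specific transcripts, a higher level in brain than in each other tissue and a flag of absent in those tissues. Each of them is on the brain-specific list, so the levels and detection in brain and in the other tissues are a description and carry no test. Gap43 is also on the list for F9, and no list used a difference between the cell lines. Whether the lists for GC-1 and GC-2 also hold Gap43 was not determined.

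The 24 Arraystar mouse lncRNA arrays fell into 8 groups of 3. Of these, 5 were tissues of male ICR mice aged 8 weeks (brain, heart, kidney, liver and testis), and the others were 3 mouse lines, F9, GC-1 and GC-2. F9 is an embryonal carcinoma line, grown here on gelatin and without retinoic acid, which would make it differentiate. GC-1 was immortalized from male germ cells at about the step from type B spermatogonium to primary spermatocyte, and GC-2 has features of spermatocytes. The labels name no engineered allele and no drug in any group, and the 3 arrays of a line are samples of 1 established line. Replicate 1 of every group lay on 1 slide, and replicates 2 and 3 of heart and of the lines lay on another slide than those of brain, kidney, liver and testis. The 75th percentile of intensity was 30.7 to 384 over the arrays, and 18257 to 37393 probes were well above background. Liver had the lowest of both. Its replicate 1 had the highest background, with the 95th percentile of the negative controls at 13.6, while the lowest over the arrays was 2.97. On liver replicates 2 and 3 it was 3.58 and 3.95.

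Long noncoding RNAs are transcripts that are not known to be translated. An exonic sense lncRNA overlaps exons of a protein-coding gene on the same strand, and it can share sequence with the mRNA of that gene. Gap43 encodes a protein of growth cones and axon endings. Snap25 encodes a SNARE protein with which synaptic vesicles fuse at the nerve terminal. Mobp encodes a myelin protein made by oligodendrocytes, so of the genes only Gap43 and Snap25 are known mainly for a role in neurons.

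The Gap43 lncRNA, ENSMUST00000125187, is an exonic sense transcript of 760 nt on the minus strand of chromosome 16 (GRCm38, 42248458 to 42276072). The study's text names this transcript as its heart lncRNA for PCR, and reports that such targets were expressed only or mainly in their own tissue. Its supplementary lists place the transcript among the brain transcripts. The PCR values were not analysed here, and the values given below are those of the listed probe. The transcript runs 94 bases past the 3′ end of the RefSeq gene Gap43 (42248552 to 42340651). The interval listed for its 60-base probe spans 89 bases (42248472 to 42248560), of which 80 lie beyond the annotated end of the gene and 9 inside it. The Mobp lncRNA, uc009scm.1, is an exonic sense transcript of 2609 nt on the plus strand of chromosome 9 (120149742 to 120181484). It begins at the same base as the RefSeq gene Mobp and ends 4 bases before the end of that gene, and its probe (120181425 to 120181484) lies wholly inside the gene. No cross-hybridising transcript is listed for either probe, and a match to the mRNA of the host gene was not tested. For the Snap25 lncRNA, ENSMUST00000125486, only the gene is placed here (chromosome 2, 136713439 to 136782428). The first 30 bases of the Gap43 and Mobp probes are shown 5′ to 3′ as listed, since these are the sequences that carried the signals below:
Gap43 probe: tgtgccaattagcgtaacttaaggctgtga
Mobp probe: cttaacatcgactctcaggaacattcccaa

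The Mobp lncRNA and the Mobp gene share their first base, so the 100 bases before it (chr9:120149642-120149741, GRCm38, plus strand, from RefSeq) lie in front of both. Capitals mark the motif TATATA, which reads the same on both strands and begins 29 bases before the start.
Mobp upstream: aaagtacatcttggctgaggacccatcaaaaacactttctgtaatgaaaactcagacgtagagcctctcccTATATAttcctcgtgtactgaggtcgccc
The motif was present in the same window of 721 of 32851 RefSeq promoters (2.19%), and this match of letters is a description. Of the members, 1 had a promoter entry. Gap43 and Snap25 had none.

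In the text that follows, a level is the log2 of the processed spot intensity minus the 75th percentile of that array, so 0 is the 75th percentile. A probe was called detected in a group when the scanner software flagged it well above background on all 3 arrays. The Gap43 lncRNA was detected in 4 of 8 groups, namely brain and the lines F9, GC-2 and GC-1. The Snap25 and Mobp lncRNAs were detected in brain and were well above background on 0 of the other 21 arrays. For the tissues among these, the flag of absent that the brain-specific list asked for partly fixed this, and it did not use the arrays of the lines.

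The Gap43 lncRNA had levels of 7.39, 7.31 and 7.24 on the brain arrays, from intensities of 25837, 18866 and 22247, with a mean of 7.31 ± 0.07 (SD, n = 3). In F9 the levels were 5.66, 4.79 and 5.03, from intensities of 5317, 2015 and 2141 (5.16 ± 0.45, SD, n = 3). In GC-2 they were 1.75, 0.62 and 0.60, from intensities of 492, 165 and 173 (0.99 ± 0.66, SD, n = 3). Replicate 1 was the highest array in both F9 and GC-2, and all F9 arrays lay above all GC-2 arrays. The levels in GC-1 were -1.76, -1.63 and -1.96, from intensities of 38.8, 34.4 and 25.2 (-1.78 ± 0.17, SD, n = 3). In heart they were -1.13, -2.26 and -1.54 (-1.64 ± 0.57, SD, n = 3). Heart was the case nearest to the line of detection, as replicates 1 and 3, at intensities of 48.9 and 21.9, were well above background and replicate 2, at 15.3, was not. The brain-specific list asked for a flag of absent in heart, so for Gap43 the flags read here differ from what that list asked for. Why they differ was not tested.

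The order of the Gap43 levels was thus brain, F9, GC-2, and then heart and GC-1, whose arrays overlapped and whose means lay closer than their spread. In kidney, liver and testis the probe was not well above background on any array, at intensities of 2.97 to 3.22, 3.09 to 6.38 and 3.28 to 9.69, and these groups have no order. The software's own error of the intensity was 10.0% on the brain arrays, 14.5% to 17.5% on the GC-1 arrays and about 100% on the kidney and liver arrays.

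**Figure D1:**
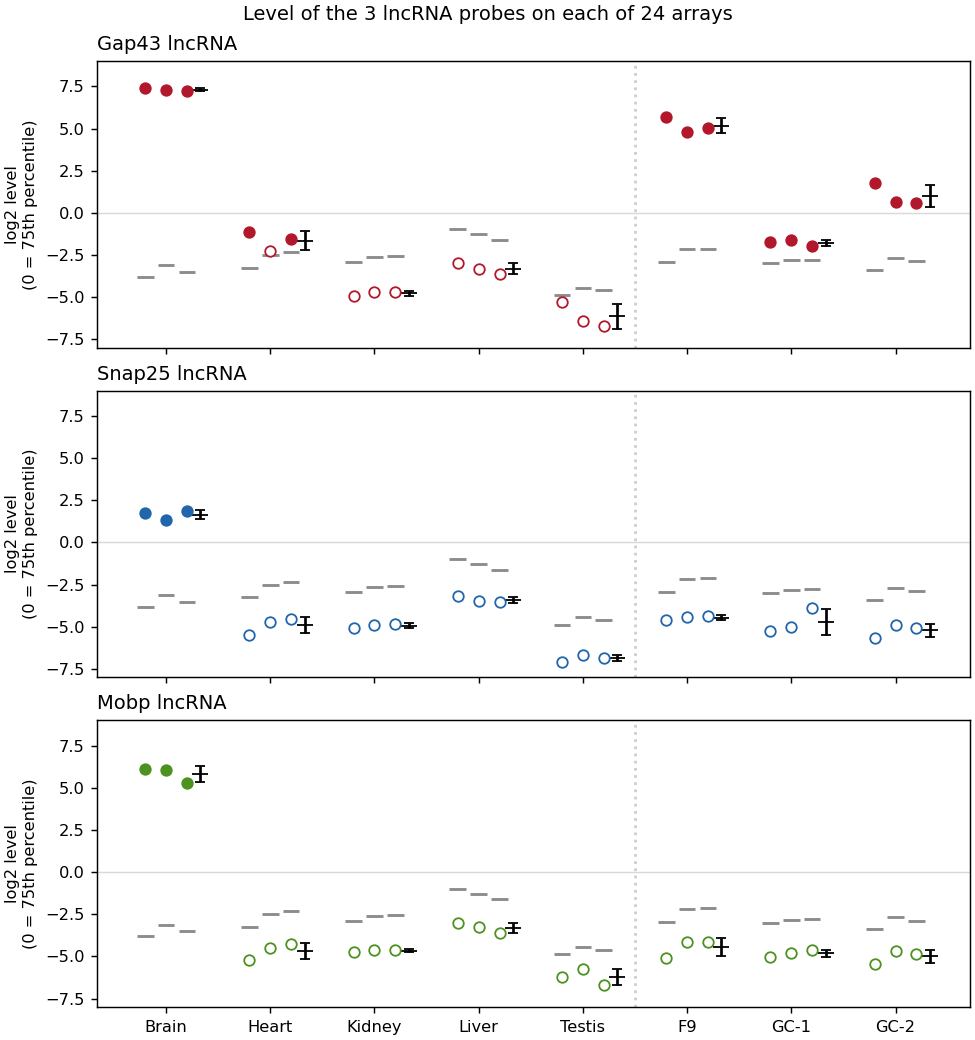
Level of the Gap43, Snap25 and Mobp lncRNAs (log2, 0 = 75th percentile of the array) on each of 24 arrays, by tissue or cell line; filled points were well above background, open points were not, black marks give the mean ± SD (n = 3) and grey bars the lowest level well above background on each array. Gap43 is detected in brain (7.31), F9 (5.16), GC-2 (0.99) and GC-1 (-1.78), and the Snap25 and Mobp points are filled in brain alone.

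The Snap25 lncRNA had levels of 1.74, 1.36 and 1.84 on the brain arrays, from intensities of 516, 305 and 524, with a mean of 1.65 ± 0.25 (SD, n = 3). On the other 21 arrays its intensity was between 2.43 and 6.75, and every one of these lay below the lowest intensity well above background on its array. The Mobp lncRNA had levels of 6.11, 6.04 and 5.28 in brain, from intensities of 10686, 7861 and 5699 (5.81 ± 0.46, SD, n = 3). Its intensity was between 2.85 and 6.13 elsewhere. Brain replicate 2 was the lowest of the brain arrays for Snap25, and replicate 3 was the lowest for Mobp.

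For each of the 3 lncRNAs, all brain arrays lay above all 21 other arrays, which held for 5.43% of all probes and which the choice of brain-specific transcripts partly fixed. The Gap43 level in brain exceeded that in F9 by 2.15 ± 0.32 (SE), a 4.44-fold difference. Both alternative scalings between arrays gave a larger difference, 3.05 with the percentile taken over detected probes and 3.15 with quantile normalization. On the slide that brain and F9 shared, with 1 array each, it was 1.73. The difference from GC-2 was 6.32 ± 0.32 (SE), or 79.9-fold, and that from GC-1 was 9.10 ± 0.32 (SE), or 547-fold. Within the shared slide these were 5.64 and 9.14. The percentile over detected probes and quantile normalization gave 7.17 and 7.05 for GC-2 and 9.88 and 9.73 for GC-1, and normexp background correction gave 7.63 for GC-1.

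Among the tissues, the Gap43 lncRNA was 8.96 ± 0.35 (SE) higher in brain than in heart on the log2 scale, or 497-fold. The PCR report for heart in the study's text, given above, goes the other way, and the conflict was not resolved here. On the shared slide the difference from heart was 8.52, and with normexp background correction it was 7.40. Where a probe was not well above background in a group, the lowest intensity well above background stood in for it, and the fold is a lower bound. By this measure Gap43 was at least 389-fold higher in brain than in liver, at least 1038-fold higher than in kidney and at least 3957-fold higher than in testis. These bounds are 8.60, 10.02 and 11.95 on the log2 scale. With normexp the fitted differences from liver, kidney and testis were smaller than the bounds, at 7.46, 7.96 and 9.27, so the bounds hold only for the background correction used. They also depend on how bright each array was, and liver, with the dimmest arrays, gave the smallest.

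The Snap25 lncRNA was at least 7.65-fold higher in brain than in liver, and the bound rose to 20.3 for heart, 20.4 for kidney and 77.8 for testis. Against the lines, it was at least 16.7-fold higher in brain than in F9, 22.8-fold than in GC-1 and 24.8-fold than in GC-2. The SNARE gene's lncRNA was thus measured in brain and bounded in every other group. The Mobp lncRNA was at least 137-fold higher in brain than in liver, 365-fold than in heart, 367-fold than in kidney and 1399-fold than in testis. Its bounds against the lines were 300-fold for F9, 410-fold for GC-1 and 446-fold for GC-2. The size of these folds depends on the background correction. With normexp, the fitted log2 difference between brain and liver was 2.15 for Snap25 and 5.99 for Mobp, against 5.06 and 9.11. The normexp values are below the bounds, which are 2.93 and 7.10 on the log2 scale. The same held in every other group, so these bounds hold only for the background correction used. In whole tissue, fewer cells of a type and less RNA per cell cannot be told apart, and this touches all levels of the tissues given here.

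The lines were compared with one another because the Gap43 lncRNA was measured in each of them and no list had used these differences. Gap43 was, however, also listed as detected in F9, and it alone is reported here because it was detected in every line. The p-values of the contrasts with F9 are thus not wholly free of the choice. The Gap43 lncRNA was higher in F9 than in GC-1 by 6.94 on the log2 scale, which is 123-fold (95% confidence interval 70.9 to 214, limma, Benjamini-Hochberg adjusted p = 8.46e-07 over all probes). It was higher in F9 than in GC-2 by 4.17, or 18.0-fold (10.4 to 31.2, limma adjusted p = 2.26e-05). It was higher in GC-2 than in GC-1 by 2.77, or 6.84-fold (3.94 to 11.9, limma adjusted p = 0.000865). The order F9, GC-2, GC-1 held with no overlap of arrays.

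All of these differences were called, a call being a fold of 5 or more with an adjusted p no greater than 0.05. By that rule 3.42% of all probes were higher and 3.72% lower in F9 than in GC-1, 3.75% higher and 3.14% lower in F9 than in GC-2, and 1.2% higher and 2.03% lower in GC-2 than in GC-1. Arrays that did not overlap in the same direction were found for 21.8%, 21.2% and 11.6% of all probes. A larger difference than that of Gap43 was seen for 195, 900 and 527 of the 60804 probes. On slide 1, with 1 array for each line, the Gap43 differences were 7.42, 3.91 and 3.51, and on the slide of replicates 2 and 3 they were 6.71, 4.30 and 2.41. The median over all probes was itself shifted by 0.40, 0.52 and -0.12 in these comparisons, and relative to it the Gap43 lncRNA differed by 6.55, 3.65 and 2.90. With normexp background correction the differences were 5.12, 3.55 and 1.56, and the last is under a fold of 5. The p-values measure the spread between 3 samples of each line.

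**Figure D2:**
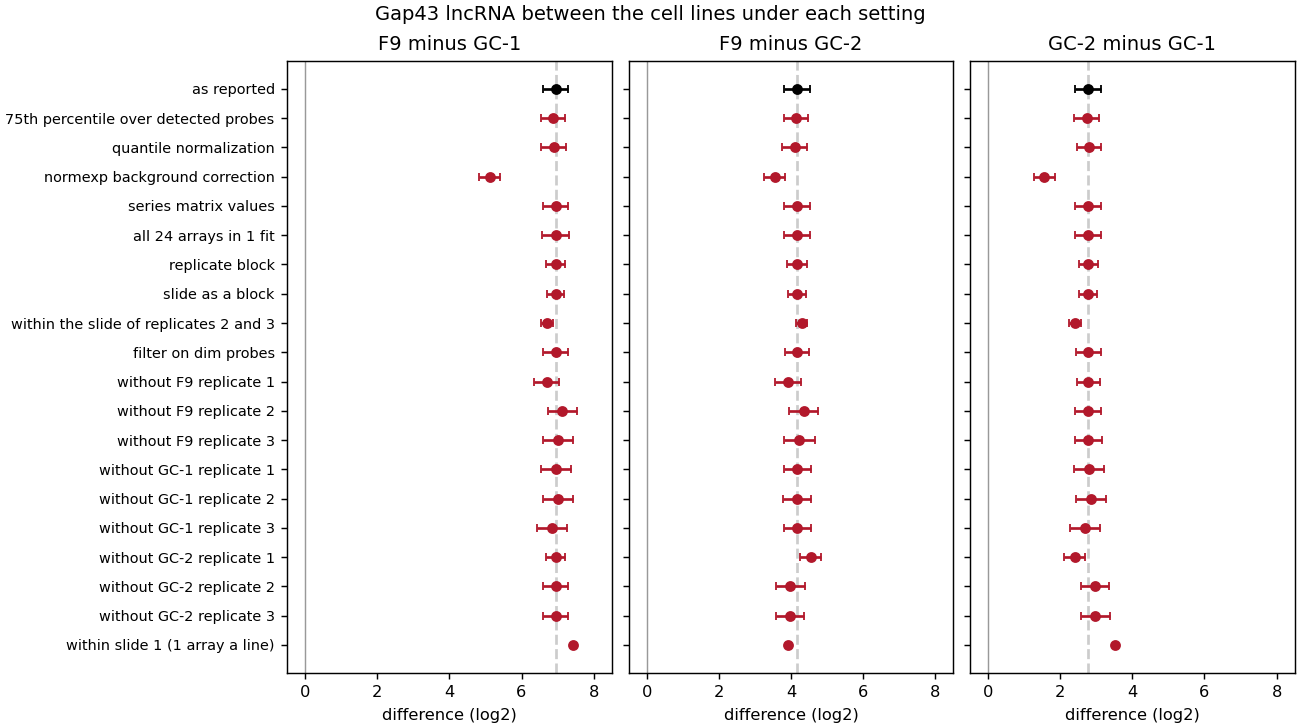
Difference in the level of the Gap43 lncRNA between the lines (log2, horizontal axis) under each setting (rows), with bars giving the SE and a dashed line at the reported value. The points for F9 minus GC-1 lie between 5.12 and 7.42, those for F9 minus GC-2 between 3.55 and 4.55 and those for GC-2 minus GC-1 between 1.56 and 3.51.

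The Snap25 and Mobp lncRNAs were not well above background in any line, so no fold between the lines is given for them.

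Of the 595 lncRNAs on the brain-specific list, F9 had 41 (6.89%) detected, GC-1 had 35 (5.88%) and GC-2 had 39 (6.55%), while 9 (1.51%) were detected in all 3 lines and 511 (85.9%) in none. The Gap43 lncRNA was among the 9, and the Snap25 and Mobp lncRNAs were among the 511. Over all probes detected in brain, whether specific or not, 65.4% were detected in all lines and 16.8% in none. Among the 41 listed lncRNAs detected in F9, the level in brain exceeded that in F9 by a median of 0.54, with 10 of them higher in F9. The difference of 2.15 for Gap43 was exceeded by 7 of them. Of the listed lncRNAs detected in GC-1 or in GC-2, 0 had a larger difference from brain than Gap43. Gap43 also had the highest brain level of the 595, which leaves the most room for a difference. By mean level it ranked 1 of the 595 in F9, 5 in GC-2 and 25 in GC-1.

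**Figure D3:**
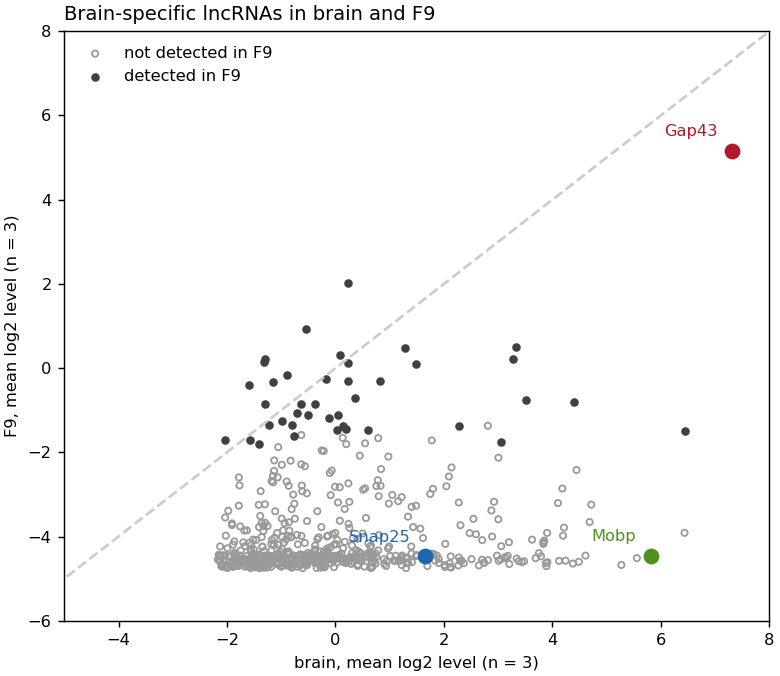
Mean level in F9 (vertical axis, log2, n = 3) against mean level in brain (horizontal axis, log2, n = 3) for the 595 lncRNAs listed as brain-specific, filled where detected in F9, with the dashed line marking equal levels. Gap43 lies 2.15 below the line, and Snap25 and Mobp lie among the lncRNAs not detected in F9.

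To set the members beside other genes of the nervous system, probes of listed neuronal, oligodendrocyte and astrocyte genes and of brain lncRNA genes were read. The files name no genes, and only 11 of 29 neuronal genes, 3 of 14 oligodendrocyte genes, 1 of 7 astrocyte genes and 3 of 4 brain lncRNA genes could be identified, the members included. This is too few to check the tissue label by markers. A gene was also counted where the only probe found was of another symbol annotated inside it, as for Mog. Apart from the members the identified genes gave 24 probes, all of lncRNAs and all detected in brain, a count that the lists used to name them partly fixed. Of the 24, F9 had 9 detected, GC-1 had 5 and GC-2 had 6, and 14 were detected in no line. Over all probes the shares detected were 36.7% in F9 and 40.9% in each of GC-1 and GC-2, and over the probes detected in brain they were 70.4%, 76.7% and 76.9%.

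Among the neuronal genes, the lncRNA of Map2, a microtubule protein of dendrites, was at a level of 1.30 in brain and -2.20 in GC-2, and was detected in both. The lncRNAs of Nrxn2, Grin1, Rbfox3, Nrxn3 and Gria2 were detected in brain and in no line, as was the Snap25 lncRNA. The Gria1 lncRNA, of a glutamate receptor gene, had a level of 5.38 in brain, -1.95 in heart and -2.46 in testis, and was detected in no line. Among the glial genes, the Bcas1 lncRNA, of an oligodendrocyte gene, was detected in brain alone at -1.80, as was Mobp. Gm22388 lies in an intron of Mog, a myelin gene, on the opposite strand, so it is not a probe of Mog itself. It was detected in all groups, at 7.51 in brain and 8.12 in F9, and was highest in liver at 10.08. The Aldoc lncRNA, of an astrocyte enzyme, was detected in brain at 3.72 and in testis at -3.09.

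Of the 24 probes, 7 were higher in F9 than in GC-1 by the fold and adjusted p given above, and the same 7 were higher in F9 than in GC-2, beside 3.42% and 3.75% of all probes. With normexp background correction 2 were called in each comparison. With the percentile over detected probes, and with quantile normalization, 1 of the 24 was also called lower in F9 than in GC-2. In the fit reported here the Map2 lncRNA had an F9 minus GC-2 difference of -2.32 (limma adjusted p = 0.0002), just short of a fold of 5. None passed between GC-2 and GC-1 in either direction. The 7 were 4 probes of Meg3 and 3 of Rian, imprinted lncRNA genes of one cluster, and 4 of them were detected on all F9 arrays. The median difference of the 24 was 0.92 and 1.50 for F9 over GC-1 and GC-2, against 0.40 and 0.52 for all probes. Meg3 NR_003633 had a level of 6.11 in brain and 4.83 in F9, and was not well above background in GC-1 or GC-2. Other probes of Meg3 differed from it. ENSMUST00000150851 was detected in every group, at 7.03 in brain and 6.72 in F9, and NR_027651, at 6.30 in brain, had -1.40 in F9 and -2.15 in GC-1. Zfp42, a gene of pluripotent cells and the only one of 8 genes listed for embryonal carcinoma that could be identified, was at 4.65 in F9 and was well above background on no array of GC-1 or GC-2, with mean levels there of -4.46 and -4.75.

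**Figure D4:**
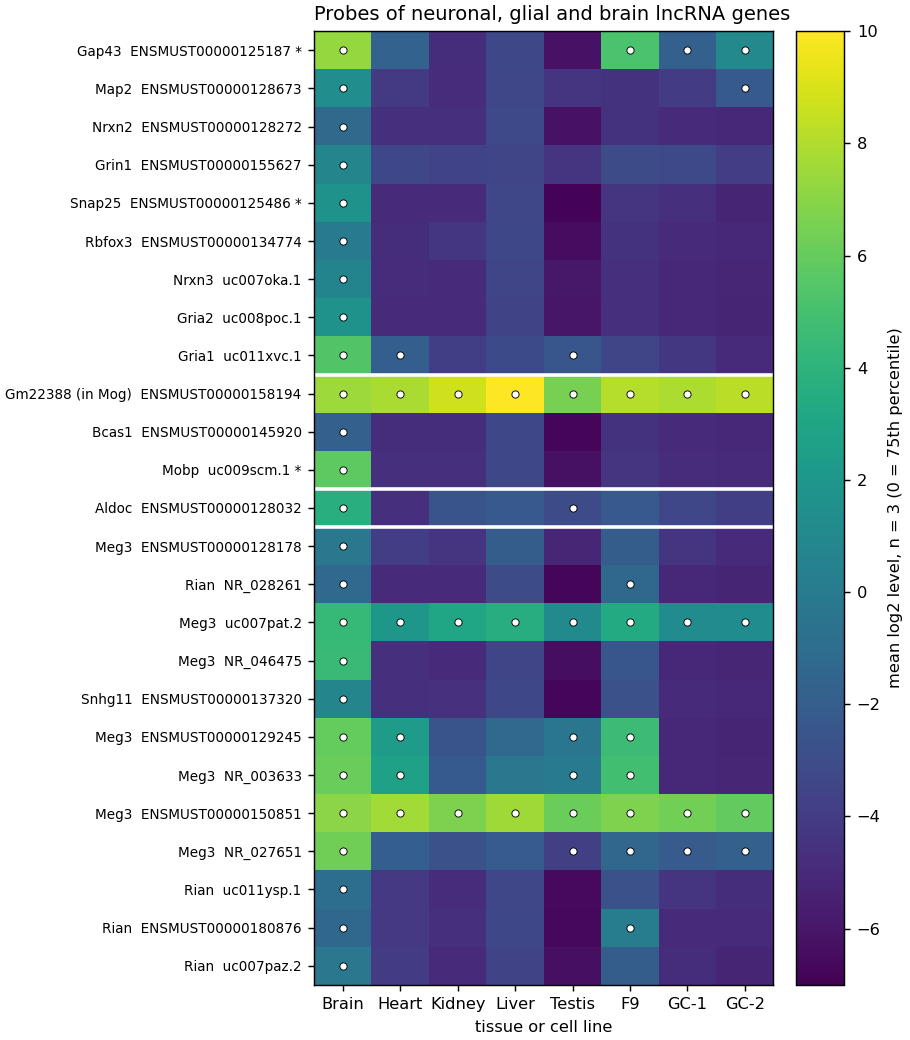
Mean level (colour, log2, n = 3) of probes of neuronal, oligodendrocyte, astrocyte and brain lncRNA genes (rows, groups split by white lines, members marked with an asterisk) in the 8 groups (columns), with a white dot where a probe was detected on all 3 arrays. Gap43 has dots in brain and all lines, Snap25 and Mobp have a dot in brain alone, and probes of Meg3 and Rian have dots in F9.

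Likeness to each member was measured as Pearson's r of the levels over the 24 arrays, among 3475 other identified probes, as a description. The arrays share their scaling, and values below background move with it. All probes named below are on the brain-specific list, which fixes much of where they were detected, and over all probes, most of them without a name here, 58, 8 and 20 had a higher r with Gap43, Snap25 and Mobp than the last one named for each. The 5 lncRNAs most like Gap43 were Ece2 (r = 0.92), AK132065 (0.89), AK140446 (0.88), Gpr83 (0.88) and A930011O12Rik (0.87). All of these were detected in brain and F9 and in no other group, so none was detected in GC-1 or GC-2 as Gap43 was. AK132065 had a level of -0.54 in brain and 0.93 in F9, and AK140446 had 3.33 in brain and 0.50 in F9. The lncRNAs most like Snap25 were Stk3, Gm15404, mouselincRNA1476, humanlincRNA1086 and Lrrtm1, with r of 0.993 to 0.994. Those most like Mobp were AK083197, AK046285, XLOC_021695, AK081247 and Gm13629, with r of 0.992 to 0.996. All 10 were detected in brain alone.

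Over all probes, 832 had an r above 0.9 with Snap25 and 747 with Mobp, but 17 with Gap43. Among the members, r was 0.98 between Snap25 and Mobp, 0.71 between Gap43 and Snap25, and 0.69 between Gap43 and Mobp.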

How the data were processed

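Cy3-labeled RNA was hybridized to 1-colour arrays, which were quantified with Agilent Feature Extraction 11.5.1.1, per the labels and the study's methods. The authors deposited the intensity of each of 62243 spots per array, with the software's background subtraction, and other columns with its flags. A deposited matrix held the same intensities of 60804 probes (largest relative difference 0.000228), with no normalization across arrays. GeneSpring GX, which the methods give for that step, was not run here. The authors' own levels, folds and p-values in supplementary lists were not used, and the lists served to name probes. Symbols, positions and probe sequences come from them, and gene spans from RefSeq (GRCm38).

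The log2 of the processed intensity minus the 75th percentile of the array was the level. The 9 arrays of the lines were fitted with limma 3.58.1 (R 4.3.3; lmFit and eBayes, two-sided), with Benjamini-Hochberg adjustment over all probes, and a call needed a fold of 5 or more with an adjusted p no greater than 0.05. SEs of brain minus line came from a fit of 12 arrays and of brain minus tissue from 15 arrays. The code was tested on simulated data. Summaries used scipy 1.17.1, pandas 2.3.3 and numpy 2.4.6 in Python 3.11.15, and figures matplotlib 3.10.9. The probe's transcript on an array that is not well above background has only an upper limit, and a bound is the brain mean over the mean, per array, of the higher of the lowest level well above background and the probe's own level. Across arrays the lowest intensity well above background was 11.0 to 25.3. There is no counting depth on arrays, and precision is limited by having 3 in a group. The alternatives were other scalings, background correction, input table, all arrays in 1 fit, blocks, a filter on dim probes and left-out replicates. Normexp (offset 50) was run on the median spot signal, chosen after seeing the data, since the mean signal was not used here. The text names the members, every identified probe of the gene lists and, for each member, the 5 identified probes most like it. The members and lists were chosen with earlier results of these data known. Some listed genes are counted but not reported here by name, and are not drawn.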

Additional observations from a re-analysis of the deposited data

How the results depend on the processing

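Of 378 values recomputed under an alternative, 314 stayed on their side of the adjusted p, within the spread between replicates or, for counts, within the limit set for them, 64 moved, and 0 reversed or crossed the adjusted p. Some of the 314 could not move. The deposited matrix held the same intensities, and leaving out an array of a line not compared left the Gap43 difference unchanged. The slide 1 differences between lines have no adjusted p and were counted as staying without a check. Between GC-2 and GC-1, Gap43 lost its call with normexp, at 1.56, since that is under a fold of 5. Gap43 lay past the adjusted p under all 18 tested alternatives, at 3.47e-12 to 3.95e-05 for F9 over GC-1, 1.08e-08 to 0.000185 for F9 over GC-2 and 1.08e-05 to 0.00545 for GC-2 over GC-1. Normexp background correction gave the most moved values. Transcripts that differed numbered 1250, 1271 and 537 with it (F9 over GC-1, F9 over GC-2, GC-2 over GC-1), against 4338, 4193 and 1963, and the listed probes numbered 2 and 2 against 7 and 7. With the percentile over detected probes, and with quantile normalization, the listed probes between F9 and GC-2 numbered 8, with 7 higher and 1 lower in F9. The Gap43 difference between brain and heart was 7.40 with normexp and 9.80 with quantile normalization, against 8.96. That between brain and F9 was 3.05 with the percentile over detected probes and 3.15 with quantile normalization. Neither Snap25 nor Mobp was well above background in liver, the group with the smallest bounds, so the fitted differences there are not measured folds. The fitted difference from liver was 5.06 for Snap25, and 5.69, 6.50 and 2.15 with the percentile over detected probes, quantile normalization and normexp. For Mobp it was 9.11, and 9.74, 10.68 and 5.99. The cause was not tested. The brain bounds printed as folds rest on the scaling and background correction used. With the software's weaker flag, or with 2 of 3 arrays asked for, Gap43 was also detected in heart, in 5 groups. Leaving out 1 array gave Gap43 differences of 6.69 to 7.13, 3.92 to 4.55 and 2.40 to 2.97 between the lines, 1.97 to 2.40 between brain and F9 and 8.65 to 9.21 between brain and heart. It gave 4276 to 4469, 4146 to 4383 and 1836 to 2071 calls. Replicate numbers were shared between the lines, but same-numbered arrays correlated at only 0.0651 to 0.291 and 5 of 9 correlated best with their own number, so the numbers were not taken as pairs. The correlations followed the slides. Between lines, replicate 1 correlated at 0.203 to 0.291 with replicate 1 and at -0.222 to -0.114 with replicates 2 and 3. With the slide as a block the Gap43 differences were 6.94, 4.17 and 2.77, with limma adjusted p of 1.64e-06, 1.63e-05 and 0.00031. In that fit 4338, 4239 and 2002 transcripts were called. With a replicate block the Gap43 differences were 6.94, 4.17 and 2.77, with limma adjusted p of 1.35e-05, 8.55e-05 and 0.00119, and 4325, 4199 and 1968 transcripts were called. Normexp on the mean spot signal was not run.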
